A study of Mus musculus with 12 samples.

Results

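Succinate dehydrogenase, or complex II, was examined gene by gene in mouse liver with (wild type, WT) and without (knockout, KO) the Mettl5 gene. The genes were its 4 subunits, Sdha, Sdhb, Sdhc and Sdhd, and 2 of its assembly factors, Sdhaf1 and Sdhaf2. They were taken as a group because, among all genes with a measured translation efficiency, Sdhd had the smallest p-value for a difference between the genotypes. All 6 genes were in the input count table of 55487 genes, and 5 were in the table of normalized values, which held 10607 genes. Sdhaf1 was in the first table alone, so its footprints were not analysed here.

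The livers came from 3 WT and 3 Mettl5 KO mice, with 1 WT and 1 KO mouse from each of 3 litters. Each liver gave 1 library of total lysate RNA (input) and 1 library of ribosome-protected fragments (RPF), 12 libraries in all. The KO mice carried a whole-body deletion of Mettl5 exon 2, obtained by crossing a floxed line with a CMV-Cre line. The floxed line was made in F1 hybrid C57BL/6 x 129S6 ES cells and backcrossed to B6. Every frozen liver, WT and KO alike, was lysed in cycloheximide, which stalls elongating ribosomes. METTL5 is the methyltransferase that places an N6-methyladenosine on 18S rRNA, and the comparison asked which transcripts are translated differently without it.

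Complex II sits in the inner mitochondrial membrane and belongs to both the TCA cycle and the respiratory chain. SDHA carries a covalent FAD and oxidizes succinate to fumarate, SDHB passes the electrons along its iron-sulfur clusters, and the membrane anchors SDHC and SDHD hold the site where ubiquinone is reduced. All subunits are encoded in the nucleus, and inherited loss of their function in people leads to paraganglioma, pheochromocytoma or mitochondrial disease.

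The start codons are shown first, because the genes were chosen by a measure of translation. Each line below gives the 12 bases before the start codon and the first 18 bases of the coding sequence on the sense strand in mm10, for the longest annotated coding sequence of the gene, with the ATG in capitals. The A of the ATG is at position 74350208 of chromosome 13 for Sdha, 140961405 of chromosome 4 for Sdhb, 171150578 of chromosome 1 for Sdhc, 50603789 of chromosome 9 for Sdhd, 30322329 of chromosome 7 for Sdhaf1 and 10526008 of chromosome 19 for Sdhaf2.
Sdha: gggaaggcagacATGgccggggttggcgca
Sdhb: tcaggagccaaaATGgcggcgacggtcggg
Sdhc: ccggaactcaagATGgctgcgttcttgctg
Sdhd: ctcgaaagcgacATGgcggttctcttaaag
Sdhaf1: gacgccgcggtcATGagccggcccagccgg
Sdhaf2: actccttctgacATGgctccggaaatacgc

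All 6 genes had a purine 3 bases before the ATG, as did 86.4% of 10366 genes. These were the genes in the table of normalized values with a complete annotated reading frame and at least 3 bases before it. A G followed the ATG directly in every gene but Sdhaf1, and in 53.3% of those genes. Both features together were found in 46.0% of genes. By these features the start of Sdhd did not stand apart from the starts of Sdha, Sdhb, Sdhc and Sdhaf2.

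The subunit genes lie on different chromosomes. Sdha is on chromosome 13 (74322254 to 74350280, minus strand), Sdhb on chromosome 4 (140961203 to 140979193, plus strand) and Sdhc on chromosome 1 (171127165 to 171150603, minus strand). Sdhd is on chromosome 9 (50596357 to 50603812, minus strand), where 4 exons make up its single annotated transcript. The assembly factor gene Sdhaf1 is on chromosome 7 (30321406 to 30323895, minus strand), and Sdhaf2 is on chromosome 19 (10500534 to 10526142, minus strand). Sdhd has the shortest coding sequence of the subunits, 480 bases for 159 residues, after a 5′ untranslated region of 23 bases with no upstream ATG. Among the other subunits, this region was 25 bases in Sdhc and 72 in Sdha, also with no upstream ATG. In Sdhb it was 202 bases with 2 upstream ATGs. The GC content of the Sdhd coding sequence was 57.7%, higher than that of 79.4% of the genes in the table. The other subunits were at 51.2% for Sdha, 53.4% for Sdhb and 53.5% for Sdhc, while Sdhaf2 was at 46.9% and Sdhaf1 at 70.0%. No stretch of 28 bases in any of the 6 coding sequences was found in a transcript of another gene, and no near copy of a coding sequence (at least 90% identity over 50 bases) was found elsewhere in the genome.

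Total input counts per library were 8326325 to 11825643, and the RPF columns of the normalized table held 4623826 to 9184242 reads. Mettl5, the targeted gene, had 58.4, 47.8 and 53.1 normalized RPF reads in WT mice 1 to 3 and 8.34, 5.53 and 9.56 in KO mice 1 to 3 (limma adjusted p = 0.00504). All 6 hepatocyte markers had counts in every input library. Markers of other cell types were higher on average in KO, by summed CPM before further scaling. The ratios were 1.46 for stellate, 1.36 for bile duct, 1.21 for endothelial, 1.20 for Kupffer, 1.17 for blood and 1.09 for hepatocyte markers. Sdha, whose CPM in KO mouse 1 is given below, had a ratio of 1.12 in this measure. Bile duct markers summed to only 1.80 to 4.14 CPM, and 2 of the 4 had a count in every library. The ranges overlapped for each list, no marker passed an adjusted p of 0.05 in input (edgeR) or RPF (limma), and the part of these levels in the results was not tested. The input library of KO mouse 1 stood apart, with 5121304 reads in the normalized table against 2398804 to 3078540 in the other input libraries and 238 CPM of Sdha before further scaling against 118 to 167. In bulk liver, fewer cells of a type and less RNA per cell cannot be told apart.

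No difference in transcript level between WT and KO livers was detected for the 5 genes tested, whose fitted log2 changes were all between -0.07 and 0.05. Normalized input reads of Sdhd were 453, 475 and 476 in WT mice 1 to 3 and 448, 441 and 430 in KO mice 1 to 3. The KO mice were thus all slightly below the WT mice, with 440 ± 8.99 against 468 ± 12.9 (SD, n = 3 each). Over all genes, 5.6% had all KO mice below all WT mice in input. For the catalytic subunit Sdha, input was 2047, 2182 and 2111 in WT and 1854, 2190 and 2032 in KO. The iron-sulfur subunit Sdhb had 862, 738 and 800 in WT and 610, 853 and 785 in KO. The anchor subunit Sdhc had 420, 370 and 475 in WT and 378, 420 and 413 in KO. The genotypes overlapped for Sdha, Sdhb and Sdhc. In edgeR's fit of the counts, log2 fold changes (KO over WT) were -0.04 ± 0.13 (SE) for Sdha, -0.07 ± 0.15 for Sdhb and -0.04 ± 0.14 for Sdhc, each with an adjusted p of 0.999. The fitted input change of Sdhd, given without a test because it enters the measure that selected the gene, was -0.06 ± 0.13.

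The assembly factors were far less abundant. SDHAF1 helps to bring iron-sulfur clusters to SDHB, and its gene had 22, 19 and 30 input counts in WT and 50, 20 and 34 in KO. Scaled for library size with TMM, these were 3.02, 2.23 and 2.96 CPM in WT and 2.56, 2.01 and 4.09 in KO. KO mouse 3 gave the highest of the 6 values and KO mouse 2 the lowest. SDHAF2 is needed for the attachment of FAD to SDHA, and normalized input reads of Sdhaf2 were 60.5, 48.6 and 64.2 in WT and 50.0, 65.1 and 59.2 in KO. The log2 fold changes were 0.05 ± 0.31 for Sdhaf1 and 0.02 ± 0.23 for Sdhaf2 (edgeR, adjusted p = 0.999 for both). No gene of the 10057 tested passed an adjusted p of 0.05 in input with edgeR, 348 had an unadjusted p under 0.05 (3.46%), and DESeq2 called 1 gene, Mup20.

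Footprints on Sdhd were higher in KO, with no matching rise in its transcript. Sdhd had 1488, 1121 and 1714 normalized RPF reads in WT mice 1 to 3 and 2478, 2294 and 2625 in KO mice 1 to 3. Every KO mouse was above every WT mouse, with means of 2466 ± 166 and 1441 ± 299 (SD, n = 3 each). Within litters the KO over WT ratio was 1.67, 2.05 and 1.53. All KO mice lay above all WT mice for 6.97% of genes in RPF. The fitted log2 fold change was 0.79 ± 0.14 (SE), the 188th highest of 8994 genes, and it is a description, since footprints are the numerator of the measure that selected Sdhd.

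The other measured members did not share this. Sdha had 4039, 3424 and 3419 normalized RPF reads in WT and 3423, 3130 and 2964 in KO. WT mouse 3 and KO mouse 1 were nearly equal, and the other KO mice were below the WT range. Sdhb had 2622, 2369 and 2320 in WT and 2067, 2271 and 2051 in KO, with all KO mice below all WT mice. Sdhc had 1224, 1288 and 1314 in WT and 1178, 1116 and 1142 in KO, also without overlap. Sdhaf2 had 87.1, 79.3 and 83.0 in WT and 53.5, 73.2 and 56.4 in KO, again with the KO mice lower.

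All KO mice were thus below all WT mice for 3 of these 4 genes, against 12.9% of all genes, but none of the 4 passed an adjusted p of 0.05 in limma, where 0.489% of genes did (44 genes, and 236 with litter as a block, which also called none of the 4). The log2 fold changes in RPF were -0.19 for Sdha (95% interval -0.45 to 0.07, adjusted p = 0.530), -0.19 for Sdhb (-0.48 to 0.10, adjusted p = 0.574) and -0.15 for Sdhc (-0.42 to 0.11, adjusted p = 0.636). For Sdhaf2 the change was -0.45 (-0.88 to -0.03) with an unadjusted p from limma of 0.0389 and an adjusted p of 0.348. An unadjusted p under 0.05 with a lower KO value was found for 7.99% of genes. With the trend of RPF values with GC content removed from each library, described further on, the genotypes overlapped for Sdhaf2 and its unadjusted p from limma was 0.162. Within litters, normalized RPF reads of all 4 genes were lower in the KO mouse in each of the 3 litters. KO over WT ratios were 0.847, 0.914 and 0.867 for Sdha and 0.789, 0.959 and 0.884 for Sdhb. They were 0.962, 0.866 and 0.869 for Sdhc and 0.614, 0.922 and 0.679 for Sdhaf2. The share of all genes that were lower in all 3 litters was not counted. Sdhaf2 rested on 59 to 161 RPF reads before normalization and 31 to 76 input counts per library.

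**Figure D1:**
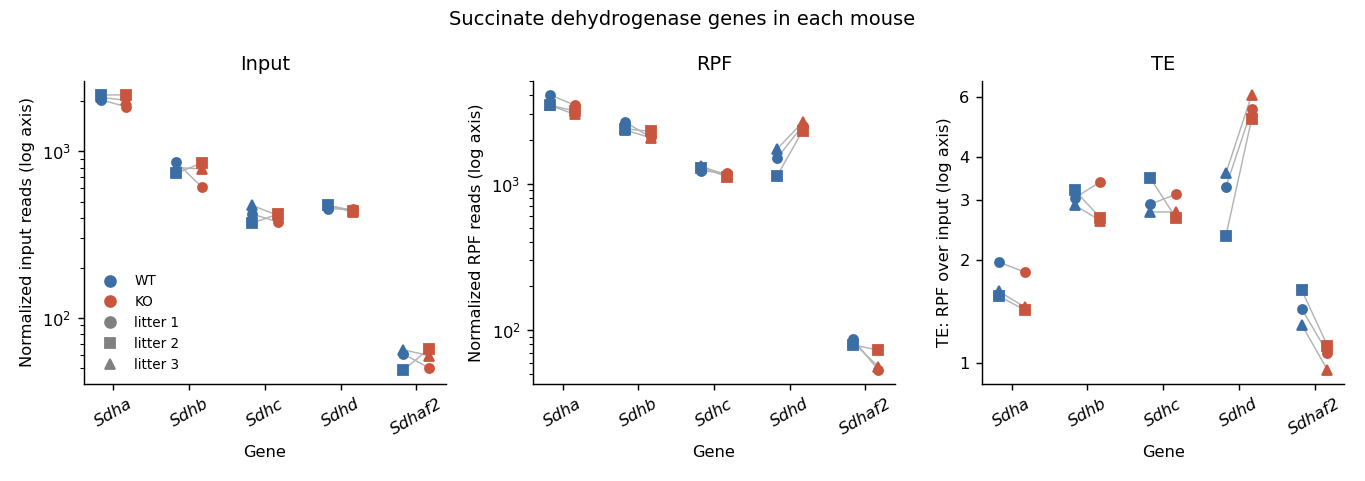
Normalized input reads, normalized RPF reads and their ratio (TE) for each gene on log axes, with 1 point per mouse, WT in blue, KO in red, a symbol for each litter and grey lines joining littermates. Sdhd RPF reads lie between 1121 and 1714 in WT and between 2294 and 2625 in KO, while for Sdhb, Sdhc and Sdhaf2 the KO points lie below the WT points.

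Translation efficiency (TE), the normalized RPF reads of a gene divided by its normalized input reads in the same mouse, combined the small difference in input with the larger one in footprints. It holds no gene length and is compared here between genotypes only. TE of Sdhd was 3.28, 2.36 and 3.60 in WT mice 1 to 3 and 5.53, 5.20 and 6.10 in KO mice 1 to 3. The means were 3.08 ± 0.644 and 5.61 ± 0.458 (SD, n = 3 each), and the KO over WT ratio within litters was 1.68, 2.20 and 1.69. All KO mice lay above all WT mice in TE for 6.09% of genes. On the log2 scale the fitted change was 0.88 ± 0.20 (SE), the 174th highest of 8994 genes. The p-value by which Sdhd was chosen was 0.000337 in the limma fit, on 1314 to 3731 RPF reads per library. The gene just outside the choice was Rbm3 at 0.000704 in the limma fit, with a log2 change of -2.74 on 3 to 30 RPF reads. After adjustment over 8994 genes no gene passed 0.05 in TE, with a lowest adjusted p of 0.998 from limma. An unadjusted p under 0.05 was found for 423 genes (4.7%), and edgeR on whole reads also called none. With litter as a block, 1 gene passed, the mitochondrial ribosomal protein gene Mrpl51, named here after its value was seen, and none passed with mouse as a block or with mouse and litter as blocks.

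Among the other members, TE was 1.97, 1.57 and 1.62 for Sdha in WT and 1.85, 1.43 and 1.46 in KO. It was 3.04, 3.21 and 2.90 for Sdhb in WT and 3.39, 2.66 and 2.61 in KO. For Sdhc it was 2.91, 3.48 and 2.77 in WT and 3.12, 2.66 and 2.77 in KO. The genotypes overlapped in all 3. TE of Sdhaf2 was 1.44, 1.63 and 1.29 in WT and 1.07, 1.12 and 0.953 in KO, so the KO mice were lower without overlap, as for 7.34% of all genes. Within litters, the KO mouse was lower in TE in 3 of 3 litters for Sdha (ratios of 0.935, 0.911 and 0.901) and for Sdhaf2 (0.744, 0.688 and 0.737). For Sdhb and Sdhc it was higher in litter 1, with ratios of 1.11 and 1.07. The share of all genes that were lower in TE in all 3 litters was not counted. Log2 changes were -0.13 for Sdha (95% interval -0.50 to 0.24), -0.09 for Sdhb (-0.50 to 0.32), -0.10 for Sdhc (-0.47 to 0.28) and -0.46 for Sdhaf2 (-1.07 to 0.14), each with an adjusted p of 0.998 in limma.

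**Figure D2:**
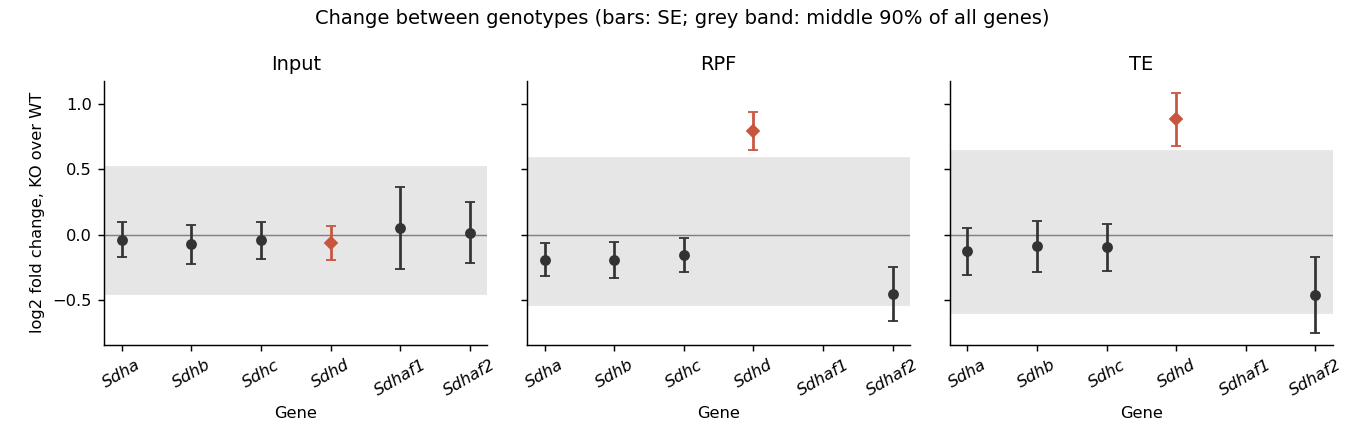
Log2 fold change of KO over WT for each gene in input (edgeR), RPF and TE (limma), with bars for the SE, a red diamond for Sdhd and a grey band for the middle 90% of all genes tested. Sdhd lies at -0.06 in input, 0.79 in RPF and 0.88 in TE, above the band in the last 2 panels, and the other genes lie below 0 in RPF and TE.

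Footprint density, in normalized RPF reads per kb of coding sequence, allows the genes to be compared with each other. In WT it was 3002 ± 623 for Sdhd, 2870 ± 191 for Sdhb, 2501 ± 90.9 for Sdhc, 1818 ± 179 for Sdha and 166 ± 7.77 for Sdhaf2 (SD, n = 3). Sdhd did not differ from Sdhb or Sdhc beyond its own spread, whereas Sdhc was above Sdha in every mouse. Densities of the 4 subunits in WT exceeded those of 97.1% to 98.2% of 10597 genes, and the density of Sdhaf2 exceeded that of 79.1%. In KO the density was 5137 ± 346 for Sdhd, 2509 ± 145 for Sdhb, 2246 ± 61.5 for Sdhc, 1590 ± 116 for Sdha and 122 ± 21.2 for Sdhaf2. Sdhd ranked first in 5 of 6 mice. In WT mouse 2 it ranked behind Sdhb and Sdhc.

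The balance among the subunits can be read within a library, where scaling between libraries plays no part. Sdhd density relative to Sdha was 1.53, 1.36 and 2.08 in WT and 3.01, 3.05 and 3.68 in KO. The means were 1.66 ± 0.378 and 3.25 ± 0.378 (SD, n = 3 each), with every KO mouse above every WT mouse. The same ratio was 1.58 ± 0.0516 in WT and 1.58 ± 0.148 in KO for Sdhb, and 1.39 ± 0.175 and 1.42 ± 0.0824 for Sdhc. For these subunits the genotypes overlapped, and the difference between the means was smaller than the SD. For Sdhaf2 it was 0.0916 ± 0.00544 in WT and 0.0770 ± 0.0154 in KO, also overlapping. The ratios are descriptions and were not tested between the genotypes. Nor was the trend of RPF values with GC content, described further on, removed from them. Coding GC content was 57.7% for Sdhd and 51.2% for Sdha. For Sdhd the numerator also enters the measure that selected the gene. The denominator, the density of Sdha, was itself lower on average in KO (1590 against 1818 normalized RPF reads per kb).

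**Figure D3:**
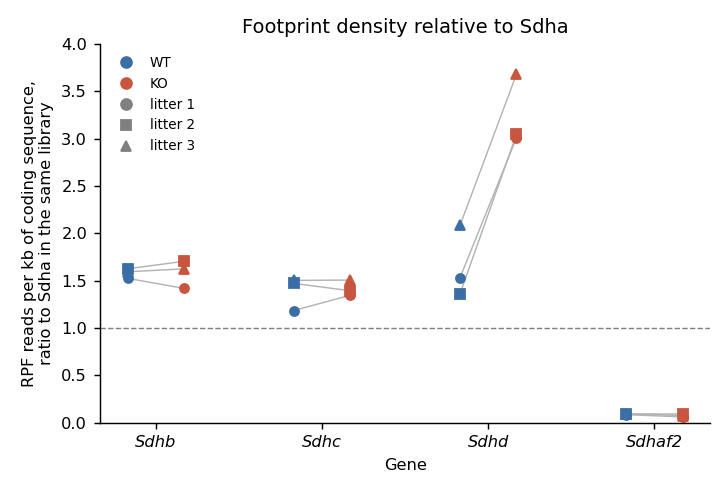
RPF reads per kb of coding sequence as a ratio to Sdha in the same library (dashed line at 1), with 1 point per mouse, WT in blue, KO in red and grey lines joining littermates. Sdhd lies between 1.36 and 2.08 in WT and between 3.01 and 3.68 in KO, whereas the genotypes overlap for Sdhb, Sdhc and Sdhaf2.

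The WT mice differed more from each other in Sdhd footprints than in those of the other subunits. The coefficient of variation of normalized RPF reads over the WT mice was 20.8% for Sdhd, 9.83% for Sdha, 6.64% for Sdhb and 3.63% for Sdhc. Sdhd had at least 1314 RPF reads per library, for which counting error alone is at most 2.76%. WT mouse 2 was the lowest in Sdhd footprints and TE, and without it the TE change of Sdhd was 0.70. Without KO mouse 1, whose input library stood apart, it was 0.89. Counting alone would give the TE change an SE of 0.0695, and the SE of the fit was 0.20.

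The relation of RPF values to the GC content of the coding sequence moved with genotype. Each library was taken as its log2 RPF values minus the mean of all RPF libraries, so the slopes are relative to that mean. Per 10 percentage points of coding GC content, the slope was -0.17, -0.14 and -0.08 in WT mice 1 to 3. In KO mice 1 to 3 it was -0.01, 0.13 and 0.28. Among genes with a GC content of 56% to 58%, the range that holds Sdhd, the median RPF log2 change was 0.10, and among those of 46% to 48%, the range of Sdhaf2, it was -0.16. With the GC trend removed from each library, the log2 change of Sdhd was 0.66 in RPF and 0.75 in TE. For Sdhaf2 it was -0.30 in RPF and -0.34 in TE, and for Sdha, Sdhb and Sdhc it was -0.14, -0.20 and -0.16 in RPF. RPF reads of Sdhd after this step were 1591, 1182 and 1753 in WT and 2534, 2179 and 2353 in KO, still without overlap. Those of Sdhaf2 were 81.8, 76.2 and 81.3 in WT and 55.2, 77.7 and 63.6 in KO, so KO mouse 2 was above WT mouse 2 and the genotypes overlapped. Sdhb and Sdhc stayed without overlap. The share of all genes without overlap after this step was not counted, and Sdhd footprints enter the measure that selected the gene.

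**Figure D4:**
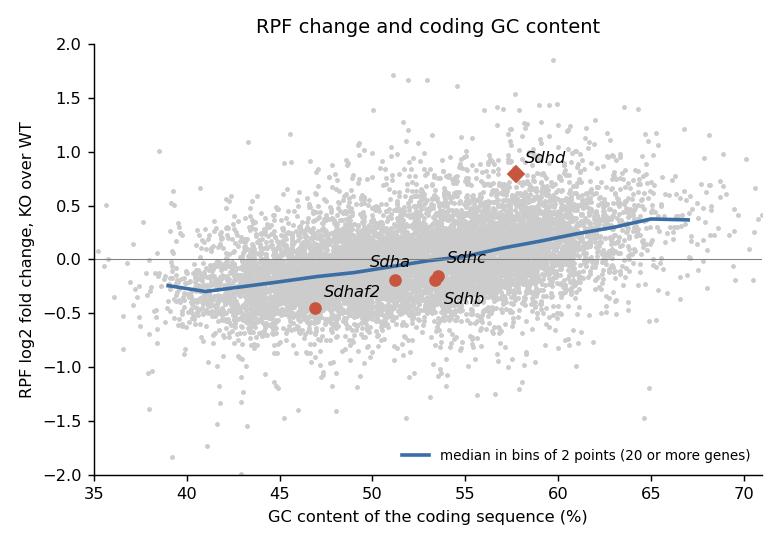
RPF log2 fold change of KO over WT against the GC content of the coding sequence for 8986 genes (grey points, 29 of them outside the axes), with the median in bins of 2 percentage points as a blue line and the complex II genes in red. The median line climbs from -0.24 at 39% to 0.37 at 67% GC, and Sdhd lies at 57.7% GC and 0.79, above the line, while the other complex II genes lie below it.

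The closest neighbour of Sdhd is Timm8b, a gene for a small chaperone of mitochondrial protein import, which lies 97 bases away on the opposite strand (chromosome 9, 50603910 to 50605320, plus strand). TE of Timm8b was 1.87, 1.60 and 1.64 in WT and 2.67, 1.42 and 1.39 in KO. Its log2 change was 0.03 in TE (95% interval -0.62 to 0.69, limma adjusted p = 0.998) and -0.12 ± 0.24 (SE) in input. The gene on the other side, Il18, which encodes a cytokine, lies 14516 bases away. Il18 had a TE of 3.84, 3.67 and 3.42 in WT and 4.94, 3.44 and 3.84 in KO, and the genotypes overlapped.

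The enzymes and factors around complex II were followed through 60 listed genes, of which 57 were tested. None passed an adjusted p of 0.05 in input (edgeR), RPF or TE (limma). An unadjusted p under 0.05 was reached in RPF by 3 of the 57 with higher and 4 with lower values in KO, beside 5.4% and 7.99% of all genes (13.4% in either direction). In TE it was reached by 1 in the higher and 4 in the lower direction, beside 2.09% and 2.61% of all genes. In input 2 were in the higher and 0 in the lower direction, beside 1.97% and 1.49%.

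Of 19 genes of the TCA cycle and its entry, 15 had a negative log2 change in RPF, with a median of -0.12 beside -0.03 over all genes. The share of all genes with a negative change was not counted, and the GC trend was not removed from these changes. In RPF, 4 of the 19 had an unadjusted p under 0.05, all lower in KO, beside 7.99% of all genes. In TE, 3 of the 19 had an unadjusted p under 0.05, all lower, beside 2.61% of all genes. The smallest TE p-value among the 19 belonged to Dld, the dihydrolipoamide dehydrogenase shared by the mitochondrial 2-oxoacid dehydrogenases. Dld had 1393, 1269 and 1262 normalized RPF reads in WT and 1053, 1024 and 873 in KO, without overlap. In RPF, 12.9% of all genes had all KO mice below all WT mice. The log2 change of Dld was -0.41 in RPF (limma adjusted p = 0.140) and -0.48 in TE (adjusted p = 0.998). Among genes with a coding GC content of 42% to 44%, the range that holds Dld, the median RPF log2 change was -0.25. The gene leading in the other direction was Idh2, the NADP-dependent isocitrate dehydrogenase, at 0.18 in TE (limma adjusted p = 0.998).

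The 9 other genes of electron transfer to ubiquinone had a median TE change of -0.09, beside -0.01 over all genes. Chdh, which oxidizes choline on the way to betaine, had 451, 567 and 570 normalized RPF reads in WT. It had 695, 665 and 774 in KO, without overlap. In RPF, 6.97% of all genes had all KO mice above all WT mice. The log2 change of Chdh was 0.43 in RPF (limma adjusted p = 0.166) and 0.47 in TE (adjusted p = 0.998). Among genes with a coding GC content of 58% to 60%, the range that holds Chdh, the median RPF log2 change was 0.17. In the other direction the smallest TE p-value was that of Dhodh, the pyrimidine synthesis enzyme that reduces ubiquinone. Its log2 change was -0.54 in TE, 0.04 in RPF and 0.60 in input.

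Of the 11 genes of ubiquinone synthesis, 10 were tested, with a median TE change of 0.15. The leading genes were Coq4, a scaffold of the synthesis complex, at 0.92, and Pdss2, a subunit of the enzyme that makes the isoprenoid tail, at -0.77. The change of Coq4 was 0.87 in RPF and -0.04 in input, whereas that of Pdss2 was 0.04 in RPF and 0.83 in input. Coq4 had 19.2 to 64.5 and Pdss2 43.8 to 66.5 normalized RPF reads over the 6 mice. Neither passed after adjustment.

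Of the 14 genes of mitochondrial iron-sulfur cluster assembly, 12 were tested, none with an unadjusted p under 0.05 in any of the 3 measures, and their median TE change was 0.03. Isca1, a late-acting assembly protein, led at 0.48, and Hspa9, the mitochondrial HSP70, at -0.27. The 4 genes of flavin supply all had positive TE changes, from 0.12 to 0.95, none with an unadjusted p under 0.05 in limma. The median over all genes was -0.01, and the share of all genes with a positive TE change was not counted. The highest change was that of the riboflavin transporter gene Slc52a2, on 6.10 to 18.4 normalized RPF reads. Slc52a2 had log2 changes of 0.43 in RPF and -0.51 in input. Of the other assembly factors of complex II, Sdhaf4, which acts on flavinylated SDHA, had a TE change of 0.20 (95% interval -0.47 to 0.88) and Sdhaf3, which acts in the maturation of SDHB, one of -0.61 (-1.59 to 0.37).

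**Figure D5:**
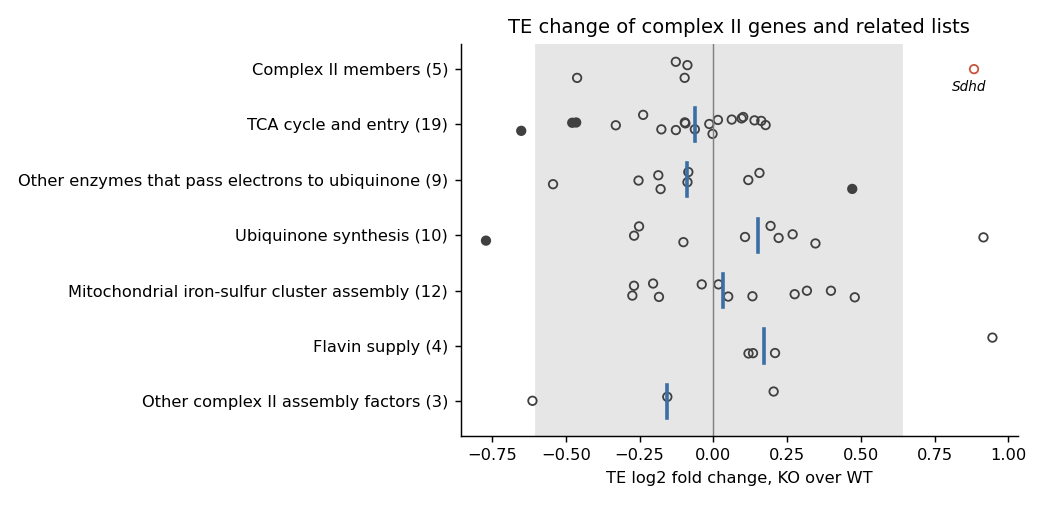
TE log2 fold change of KO over WT for the complex II genes and for the listed genes around complex II, with the number tested in parentheses, filled points for an unadjusted p under 0.05 (Sdhd, in red, has no test), blue bars for list medians and a grey band for the middle 90% of all genes. Sdhd lies at 0.88, while Sdha, Sdhb, Sdhc and Sdhaf2 lie between -0.46 and -0.09.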

How the data were processed

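Ribosome profiling of 3 WT and 3 Mettl5 KO livers was analysed from 2 tables. The members and lists were chosen with earlier results of these data known. Input counts were deposited by the authors as read pairs per gene over exons (STAR 2.7.3a on mm10, unique reads, featureCounts 1.6.0 per the methods, with another version in the file header). The authors' table of TE was deposited with normalized signal for input and RPF, from RPF reads of 25 to 34 bases mapped with RiboToolkit without duplicate removal. In every library 100% of values were whole reads (within 0.02) times 1 factor, with no length in them, and recovered input reads equalled the counts. How the factors, the gene filter and the RPF counting region were set is not given in the sources used here. The table's columns of fold changes and p-values were not used, and 0 columns lacked a sample.

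Input was tested with edgeR 4.0.16 (TMM, filterByExpr, quasi-likelihood, R 4.3.3), and RPF and TE with limma 3.58.1 on log2(value + 1), for genes averaging 10 or more in each assay, over 12 libraries and 4 group means. Fold changes of low genes are understated on this scale. The Benjamini-Hochberg adjustment covered all genes tested, and p-values are two-sided. The edgeR and limma steps were tested on simulated data. edgeR on whole reads called 66 genes in RPF and 0 in TE. Alternatives included DESeq2 1.42.0, other filters, pseudocounts and scalings, a GC correction, litter and mouse blocks and leaving out each mouse.

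Litters were given by the labels. Deviations from the group means correlated at 0.08 to 0.13 between littermates and at -0.12 to 0.02 between other WT and KO mice in input, and at 0.14 to 0.24 and -0.24 to 0.08 in RPF. With litter as a block, limma called 236 genes in RPF in place of 44, and 1 in TE in place of 0.

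Coding sequences, positions and start codons were read from the GENCODE annotation of mm10, and near copies were searched with BLAST. Named genes were the 6 members, the genes next to Sdhd, the gene with the smallest TE p-value per list and direction, the 5 genes most like Sdhd in TE, Mettl5, and the gene next in TE p-value. Depth per library limits precision chiefly for Sdhaf1 and Sdhaf2, and intervals do not cover amplification of reads without molecular identifiers.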

Additional observations from a re-analysis of the deposited data

How the results depend on the processing

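The TE change of Sdhd was 0.70 to 1.01 over 18 alternatives, lowest without WT mouse 2, and its RPF change was 0.62 to 0.93 over 16. Its rank by TE p-value was 1 to 3 under other pseudocounts, filters, scaling, edgeR on whole reads, GC correction and litter blocks. It was 41 with mouse as a block, 54 with mouse and litter as blocks, and 2 to 19 when 1 mouse was left out. No adjusted call on another member changed under any alternative, the blocks of litter included.

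The number of genes called in input, 0 with edgeR, was 1 with DESeq2 (Mup20), 30 without a count filter, 2 with the replicate block of litter (Mup20 and Mbd1) and 0 to 21 leaving out 1 mouse. In RPF the number was 44, and became 236 with the replicate block of litter, 12 with the GC trend removed and 338 with edgeR on whole reads and the replicate block of litter, an alternative added after seeing the data. It was 28, 9 and 16 without WT mouse 1, 2 or 3, and 226, 0 and 11 without KO mouse 1, 2 or 3. In TE it was 1 (Mrpl51) with the replicate block of litter, 1 with that block and the GC trend removed and 1 with edgeR on whole reads and the block. It was 0 with mouse as a block, with mouse and litter as blocks and without any 1 mouse. The cause was not tested.

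Small changes turned sign when 1 mouse was left out. The input change ranged from -0.090 to 0.018 for Sdha and from -0.17 to 0.054 for Sdhb (positive without KO mouse 1), from -0.13 to 0.053 for Sdhc (positive without WT mouse 3), from -0.24 to 0.23 for Sdhaf1 (negative without KO mouse 3, and -0.076 without WT mouse 2) and from -0.097 to 0.12 for Sdhaf2 (negative without WT mouse 2, and -0.069 without KO mouse 2). The TE change of Sdhc ranged from -0.16 to 0.00040 (positive without WT mouse 2). The density of Sdhaf2 relative to Sdha was 0.0652 in WT and 0.0548 in KO with the union of its coding exons as the length. Counts of 19 to 76 per library limit Sdhaf1 and Sdhaf2 in input.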

Other observations

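The genes with the pattern of TE over the 6 mice most like that of Sdhd were Rpp25l, Rgl1, Sparc, Gpx1 and Ropn1l. Likeness was the root mean square difference in log2 TE, each gene centred on its mean over the mice, among 5037 other genes averaging 50 or more in each assay. It was 0.11 for Rpp25l and 0.17 for Ropn1l. Likeness to Sdhd in TE fixes the direction of these genes, so their TE is a description. TE of Rpp25l was 1.82, 1.21 and 2.07 in WT mice 1 to 3 and 2.69, 2.35 and 3.16 in KO mice 1 to 3. TE of Gpx1, the gene of a selenocysteine-containing glutathione peroxidase, was 2.67, 2.17 and 2.94 in WT and 3.74, 3.81 and 4.25 in KO. In both, WT mouse 2 was the lowest of the 6 mice, as in Sdhd, which the choice by likeness over these same mice favours. Their changes differed in make-up: the log2 change of Rpp25l was 0.30 in RPF and -0.43 in input, that of Gpx1 0.46 and -0.13, and that of Sparc, a matrix protein gene, 0.92 and 0.37.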
